A study of Mus musculus with 8 samples.

Results

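The genes examined here encode proteins of the lysosome, with Gm2a, the GM2 ganglioside activator, as the leading member. The members were the transcripts whose mouse gene symbol was Gm2a, Psap, Ctsb, Ctsd, Lamp1, Lamp2, Cd63, Hexa or Npc2, a rule that used names and no measured value. The deposited tail table writes all symbols in lower case (gm2a, psap, ctsb, ctsd, cd63, lamp1 and so on). These 9 genes had 14 of the 2783 transcripts and 2509 of the 621202 reads. Poly(A) RNA of whole testes from adult mice was read by Nanopore direct RNA sequencing, in which 1 read is 1 RNA molecule and the length of its poly(A) tail is estimated from the current. The mice were Tent5c wt/wt (wt) or Tent5c dcat/dcat (dcat), an allele of the cytoplasmic poly(A) polymerase TENT5C without catalytic activity. Each mouse received 1 injection of vehicle or of busulfan at 20 mg/kg, a DNA alkylating drug toxic to germ cells, and testes were taken 4 weeks later. The 4 groups (both genotypes with either injection) held 2 mice each, which gave 8 libraries, called replicates 1 and 2 of a group. In such whole-organ RNA, fewer cells of a type and less RNA per cell cannot be told apart.

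Lysosomes are acid compartments in which enzymes break down proteins, lipids and sugars delivered by endocytosis, phagocytosis and autophagy. Their proteins are made on the endoplasmic reticulum like secreted proteins and are then sorted to the lysosome, many by a mannose 6-phosphate tag. In the testis, Sertoli cells digest the residual bodies shed by spermatids and the remains of dying germ cells, and resident macrophages and Leydig cells also hold many lysosomes. The label of the gene set calls its members routed through the endoplasmic reticulum but not secreted, which is not strictly so for Psap, whose product prosaposin is also known as a sulfated glycoprotein that Sertoli cells secrete.

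Many lysosomal genes carry in their promoters the letters CACGTG, the core of the site bound by TFEB and related factors, and the promoters are described for that reason. What part such sites had in the results below was not tested. Of the member genes, 8 had a RefSeq promoter (GRCm38.p6, 250 bases before to 50 after the gene's start), all but Ctsb. The letters CACGTG, which read the same on both strands, were in the promoters of 2 of the 8, Lamp1 and Ctsd, and in 7.15% of all 32851 promoters. The longer run TCACGTGA, which contains CACGTG, was in that of Ctsd and in 0.974% of all. Lamp1 held 4 copies within the 75 bases before its start, given here on the plus strand at chr8:13159086-13159160, and Ctsd held 2, of which the one in the longer run is given on the minus strand at chr7:142387888-142387947, with CACGTG in capitals in both. The RefSeq start of Ctsd lies downstream of the annotated start of the transcript read here, so that stretch falls within the span of the transcript.
Lamp1: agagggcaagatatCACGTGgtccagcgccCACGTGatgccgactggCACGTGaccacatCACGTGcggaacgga
Ctsd: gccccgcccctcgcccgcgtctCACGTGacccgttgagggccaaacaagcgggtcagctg
Near the other end of the RNA, the poly(A) signal AATAAA lay within 40 bases of the annotated end of 11 of the 14 member transcripts and ATTAAA in that of the other 3, those of Ctsb and Cd63. Over the 2738 transcripts that could be placed, these shares were 63.0% and 13.8%.

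Libraries held 29574 to 129074 reads. Here and below, a gene of a list is called read if it was in the deposited counts, which left out transcripts of few reads. The other genes of a list are thus not shown to be without reads. Summed markers of Sertoli cells (10 of 16 read) ranged from 3251 to 5072 CPM (reads scaled to a common library size) in vehicle and from 20631 to 29015 CPM in busulfan libraries, and those of Leydig cells (9 of 10 read) from 4052 to 7473 and from 26463 to 52632 CPM. Macrophage markers (5 of 12 read: Lyz2, C1qc, Cd74, H2-Aa and Aif1) ranged from 628 to 1123 and from 982 to 1239 CPM. Of these 5, Lyz2, C1qc, Cd74 and H2-Aa were higher after busulfan in both genotypes by edgeR (2.67 to 3.64 on the log2 scale in wt and 2.71 to 3.96 in dcat testes), from 0 to 6 reads in a vehicle library, and Aif1 was lower (-4.61 and -2.33). Late spermatid markers stood at 94881 to 119341 CPM in vehicle libraries, 9144 and 12606 CPM in wt busulfan libraries, 21811 CPM in dcat busulfan replicate 1 and 39214 CPM in dcat busulfan replicate 2. The last library stood apart from the other busulfan libraries, with the lowest CPM of Leydig and Sertoli markers of the 4 as well, and results that rest on it are given with and without it. What part these cell types had in the results below was not tested.

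The 9 genes together took a larger share of the reads after busulfan. They gave 0.136% and 0.121% of the reads in wt vehicle libraries and 0.183% and 0.110% in dcat vehicle libraries, against 0.724% and 0.786% (wt) and 0.587% and 0.425% (dcat) after busulfan. All 4 busulfan libraries lay above all 4 vehicle libraries, and both dcat busulfan libraries lay below both wt busulfan libraries. Against the Sertoli markers of the same library, the member reads stood at a ratio of 0.329 to 0.418 in vehicle and 0.206 to 0.271 in busulfan libraries. Against the Leydig markers the ratio was 0.196 to 0.271 in vehicle and 0.149 to 0.186 in busulfan libraries.

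**Figure D1:**
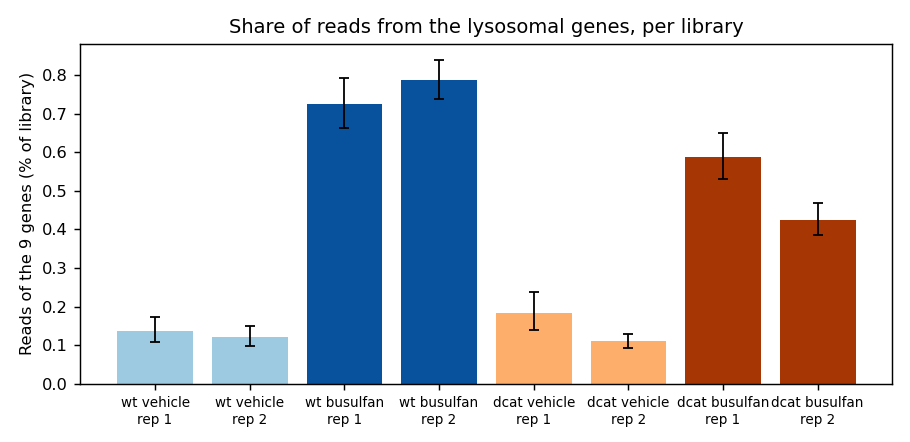
The vertical axis gives the reads of the 9 genes as a percentage of all reads of a library, for 2 libraries of each of the 4 groups, with bars for the share and error bars for the Wilson 95% interval, which covers counting error only. The vehicle libraries lie between 0.110% and 0.183% and the busulfan libraries between 0.425% and 0.786%.

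Busulfan depletes germ cells, and its effect on these transcripts was asked within each genotype. By edgeR, 7 of the 9 genes were higher after busulfan than after vehicle in wt testes, beside 35.4% of all transcripts, and 6 of 9 in dcat testes, beside 31.3%. None was lower. The median log2 fold change of the 9 genes was 3.17 in wt testes, beside 0.09 over all transcripts, and 2.44 in dcat testes, beside 0.14. In both genotypes 10 of 10 Sertoli markers were higher (median 2.97 in wt and 2.73 in dcat testes). So were 9 of 9 Leydig markers (3.29 and 2.61). Read counts are relative to the other transcripts of a library, so higher does not mean more RNA in the testis. Scaling by RLE in place of TMM shifted that median over all transcripts by -0.12 in wt and -0.21 in dcat testes, and by -0.14 for dcat against wt testes after busulfan. Each gene was represented by its transcript with the most reads. In this and the following paragraphs, levels are CPM after TMM scaling, for replicates 1 and 2, and fold changes are log2 values with their standard error (SE).

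Transcripts of the sphingolipid and cholesterol helper proteins rose in both genotypes. Gm2a, whose product lifts the ganglioside GM2 out of the membrane so that hexosaminidase A can cut it (ENSMUST00000000608, GRCm38 chromosome 11, 55098115 to 55113029, plus strand, 4 exons), stood at 116 and 114 CPM in wt vehicle and 133 and 95.9 CPM in dcat vehicle libraries. After busulfan it stood at 929 and 1167 CPM in wt and at 642 and 717 CPM in dcat libraries. The busulfan libraries did not overlap the vehicle libraries in either genotype, and the fold change was 3.17 (SE 0.45, edgeR adjusted p = 2.38e-06) in wt and 2.67 (SE 0.47, adjusted p = 0.000122) in dcat testes. Npc2, a soluble carrier that hands cholesterol to the membrane of the lysosome, was read 1 and 3 times (wt) and 4 and 9 times (dcat) after vehicle, and 37 and 72 times (wt) and 25 and 41 times (dcat) after busulfan. Its fold change was 4.09 (SE 0.62, edgeR adjusted p = 4.29e-06) in wt and 2.26 (SE 0.53, adjusted p = 0.00112) in dcat testes. So few vehicle reads leave the size of the rise of Npc2 uncertain, with 5.06 in wt testes without wt vehicle replicate 2. Without dcat vehicle replicate 2 it was 1.74 in dcat testes and no longer passed (adjusted p = 0.0562).

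Psap encodes prosaposin, the precursor that is cut into the saposins, the activators of several sphingolipid hydrolases. It was read as 4 transcripts (GRCm38 chromosome 10, 60277627 to 60302597, plus strand) that share their last exon and 2490 to 2648 exonic bases, so the split of reads among them is uncertain and the summed gene is given as well. The sum, 612 reads in all, was 12 and 14 reads (wt) and 9 and 16 reads (dcat) after vehicle, and 128 and 231 reads (wt) and 100 and 102 reads (dcat) after busulfan. Every busulfan library lay above every vehicle library in CPM. The fold change was 2.67 (SE 0.50, edgeR adjusted p = 4.98e-05) in wt and 2.96 (SE 0.58, adjusted p = 0.000269) in dcat testes for the most-read transcript. Without dcat vehicle replicate 2 the latter was 3.62. For the sum it was 3.24 and 2.90, and all 4 transcripts were higher in both genotypes, by 2.57 to 4.54.

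Transcripts of the proteases also rose. Ctsb, which encodes the cysteine protease cathepsin B (ENSMUST00000006235, GRCm38 chromosome 14, 63122462 to 63145923, plus strand, 10 exons), had 155 and 57.2 CPM (wt) and 332 and 120 CPM (dcat) after vehicle, and 1204 and 1601 CPM (wt) and 1220 and 782 CPM (dcat) after busulfan. The 4 busulfan libraries lay above the 4 vehicle libraries, with fold changes of 3.79 (SE 0.52, edgeR adjusted p = 1.78e-06) in wt and 2.44 (SE 0.49, adjusted p = 0.000368) in dcat testes. They were 4.79 without wt vehicle replicate 1, and 3.06 and 1.67 without dcat vehicle replicates 1 and 2. Ctsd, which encodes the aspartic protease cathepsin D (ENSMUST00000151120, GRCm38 chromosome 7, 142375911 to 142388038, minus strand, 9 exons), had 116 and 28.6 CPM in wt vehicle and 33.2 and 63.9 CPM in dcat vehicle libraries. After busulfan it had 628 and 819 CPM (wt) and 449.6 and 413 CPM (dcat), again without overlap. The fold changes of Ctsd were 3.41 (SE 0.55, edgeR adjusted p = 9.05e-06) and 2.89 (SE 0.58, adjusted p = 0.000325), with 4.80 and 2.90 in wt testes without wt vehicle replicates 1 and 2 and 3.70 in dcat testes without dcat vehicle replicate 2. The last exon of Ctsd is overlapped on the same strand by the gene model Gm49369, so the assignment of its reads is uncertain.

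Hexa, which encodes the alpha subunit of the hexosaminidase that GM2 activator serves, did not pass the test in either genotype. It was read 5 and 9 times (wt) and 2 and 12 times (dcat) after vehicle, and 9 and 30 times (wt) and 11 and 15 times (dcat) after busulfan. Its levels of 96.9 and 129 CPM in wt vehicle overlapped those of 118 and 282 CPM in wt busulfan libraries, whereas the dcat libraries did not overlap, with 66.4 and 95.9 CPM after vehicle and 177 and 163 CPM after busulfan. The fold change was 0.85 (95% interval -0.28 to 1.99, edgeR adjusted p = 0.161) in wt and 0.92 (-0.29 to 2.15, adjusted p = 0.172) in dcat testes. The value in wt testes turned on single libraries, with 1.29 (adjusted p = 0.0495) without wt busulfan replicate 1, 0.04 (adjusted p = 0.966) without wt busulfan replicate 2 and 1.33 (adjusted p = 0.113) without wt vehicle replicate 2.

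Of the 3 membrane genes, Lamp2 was called in both genotypes, Cd63 in wt testes and Lamp1 in neither, and the differences among them were not tested. Lamp1, an abundant glycoprotein of the lysosomal membrane (ENSMUST00000033824, GRCm38 chromosome 8, 13159161 to 13175338, plus strand, 9 exons), was read 23 and 34 times in wt vehicle and 18 and 54 times in dcat vehicle libraries, more than any other member there. Its levels were 445.5 and 486 CPM (wt) and 597 and 431 CPM (dcat) after vehicle, and 484 and 1026 CPM (wt) and 642 and 489 CPM (dcat) after busulfan, so the groups overlapped in both genotypes. The fold change was 0.71 (95% interval -0.13 to 1.55, edgeR adjusted p = 0.116) in wt and 0.19 (-0.68 to 1.06, adjusted p = 0.710) in dcat testes. It passed in wt testes without wt busulfan replicate 1 (1.13, adjusted p = 0.0342) and after the filter of edgeR on low counts (0.97, adjusted p = 0.0265), whereas without wt busulfan replicate 2 it was 0.05 (adjusted p = 0.937). Lamp1 is the gene whose promoter held the 4 copies of CACGTG shown above, and what part they had in its counts was not tested.

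Lamp2, the companion membrane glycoprotein needed for the fusion of autophagosomes, was read as transcripts with different last exons (GRCm38 chromosome X, 38405062 to 38456454, minus strand). ENSMUST00000016678 had 0 and 71.5 CPM (wt) and 33.2 and 31.9 CPM (dcat) after vehicle, and 209 and 282 CPM (wt) and 273 and 174 CPM (dcat) after busulfan. Its fold change was 2.57 (SE 0.70, edgeR adjusted p = 0.00176) in wt and 2.70 (SE 0.73, adjusted p = 0.00282) in dcat testes, with 5 vehicle reads in each genotype, and without dcat vehicle replicate 2 it did not pass in dcat testes (adjusted p = 0.0886). In wt testes it was 1.98 without wt vehicle replicate 1, and without wt vehicle replicate 2 the vehicle group held 0 reads, so that no fold could be set. ENSMUST00000061755 had 96.9 and 57.2 CPM (wt) and 66.4 and 31.9 CPM (dcat) after vehicle, and 157 and 113 CPM (wt) and 80.3 and 97.8 CPM (dcat) after busulfan. For that transcript the fold change was 0.82 (adjusted p = 0.1998) in wt and 1.18 (adjusted p = 0.139) in dcat testes. The difference between the transcripts in their fold change was not tested.

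Cd63, a tetraspanin of late endosomes and lysosomes, was read most as a transcript with 2 and 1 reads (wt) and 0 and 5 reads (dcat) after vehicle, and 18 and 27 reads (wt) and 12 and 4 reads (dcat) after busulfan. It rose in wt testes by 3.23 (SE 0.79, edgeR adjusted p = 0.000642). In dcat testes the fold change was 1.70 (SE 0.84, adjusted p = 0.0710), and without dcat busulfan replicate 2, the library that stood apart, it was 2.54 (adjusted p = 0.00575). Without dcat busulfan replicate 1 it was 0.43 (adjusted p = 0.738), and without dcat vehicle replicate 2 the vehicle group held 0 reads (adjusted p = 0.108). In wt testes it was 4.17 without wt vehicle replicate 1. Its other transcript gave 2.00 (adjusted p = 0.0171) in wt and 0.71 (adjusted p = 0.447) in dcat testes. The other 6 genes called in dcat testes were also called without that library, with fold changes of 2.19 to 3.25.

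**Figure D2:**
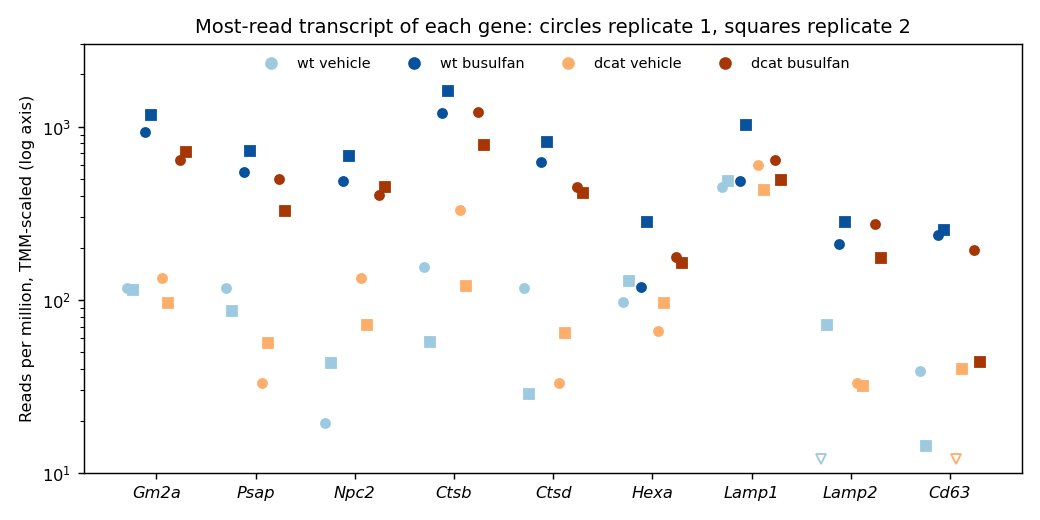
The vertical axis gives TMM-scaled CPM on a log axis, and each gene on the horizontal axis has 1 point per library, with circles for replicate 1, squares for replicate 2 and colours for the 4 groups. Open triangles at the foot mark a library with 0 reads, for Lamp2 in wt vehicle replicate 1 and Cd63 in dcat vehicle replicate 1. Gm2a rises from about 114 CPM in vehicle groups to 1048 CPM in wt and 680 CPM in dcat busulfan groups, while the points of Lamp1 overlap.

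Other genes of the lysosome, from lists that hold none of the 9 genes, gave the following counts. They stand beside 35.4% (wt) and 31.3% (dcat) of all transcripts called higher, and passed the same read filter. Those that passed it through busulfan groups alone share the limit given above for the member genes. Of the soluble hydrolases, only Ctsl, Fuca1 and Ppt1 also reached it in a vehicle group. Of the soluble hydrolases (7 of 39 read), 7 rose after busulfan in wt and 7 in dcat testes. The median fold change was 3.55 in wt testes, or 3.35 with Ctsz, which had 0 reads in both wt vehicle libraries, at its lower bound of 3 reads over the group, and 2.57 in dcat testes. Ctsl, the cathepsin L gene and the most read of them, rose by 3.55 (SE 0.40, edgeR adjusted p = 1.7e-07) in wt and by 2.57 (SE 0.40, adjusted p = 4.67e-05) in dcat testes. Lgmn, the asparaginyl protease legumain, rose by 3.85 and 3.89, and Fuca1, a fucosidase, by 3.35 and 1.39. Of the other membrane and cofactor genes (4 of 18 read), 3 rose in each genotype, with a median of 2.56 in wt and 2.23 in dcat testes. Laptm4a did not pass in either (0.63, edgeR adjusted p = 0.147, and 0.66, adjusted p = 0.159).

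A proton pump acidifies the lysosome and other compartments. Of its genes (12 of 17 read), 8 rose and 1 fell in wt testes (median 1.85), and 5 rose and 1 fell in dcat testes (median 1.13). The most read of them, Atp6v1g1, did not pass (0.01, edgeR adjusted p = 0.986, in wt and -0.31, adjusted p = 0.495, in dcat testes), whereas Atp6v0c rose by 1.86 and 1.41. The gene that fell in both was Atp6v1e2, known as the testis form of the E subunit, which had 11 and 11 reads in wt vehicle and 0 and 0 in wt busulfan libraries and was named after its values were seen. Of the sorting genes (5 of 15 read), 1 rose in wt testes (median 0.29), while 1 rose and 1 fell in dcat testes (median -0.28). Rab7, the small GTPase of late endosomes, rose by 1.77 and 1.89, and Vps26a, a retromer subunit, fell by 2.87 in dcat testes.

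By the correlation of log2 CPM over the 8 libraries, the genes most like Gm2a, of 1673 whose most-read transcript had at least 80 reads, included Apoe (r = 0.996), Chchd2 (0.992), Serinc3 (0.992) and Fabp5 (0.992). The member genes compared followed in the order Ctsd (0.957, rank 159), Psap (0.950, rank 186), Npc2 (0.946), Ctsb (0.940), Lamp2 (0.899), Hexa (0.761) and Lamp1 (0.577, rank 657). These 8 points share their treatment groups, so a correlation over them describes mostly how a transcript differed between vehicle and busulfan libraries.

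Whether the loss of TENT5C catalytic activity changed the read counts was asked within each treatment. After vehicle, 0 of 9 genes passed in edgeR (0% of all 2783 transcripts, with 65 of them at an unadjusted p under 0.05), and the fold changes of dcat over wt ran from -0.95 (Psap) to 1.37 (Npc2). At 54 to 142 member reads in a library, the intervals were wide, with -1.35 to 1.10 for Gm2a and -0.82 to 0.97 for Lamp1. After busulfan, 0 of 9 genes passed in edgeR, beside 0.431% of all transcripts called lower in dcat testes. All 9 estimates were below 0, from -0.19 (Lamp2) to -1.20 (Cd63), with a median of -0.50 beside 0.20 over all transcripts. Without dcat busulfan replicate 2, the library that stood apart, 8 of 9 were below 0 (Lamp2 at 0.13), with a median of -0.35 beside 0.06. Without wt busulfan replicate 2 only 6 of 9 were below 0, and Hexa, Lamp1 and Lamp2 were above. Both dcat busulfan libraries lay below both wt busulfan libraries for 5 of the 9 genes (Gm2a, Psap, Npc2, Ctsd and Cd63), beside 14.4% of all transcripts.

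Gm2a had a fold change of -0.62 (95% interval -1.35 to 0.09, edgeR adjusted p = 0.347) after busulfan, which was -0.71 without dcat busulfan replicate 2. Ctsd had -0.76 (-1.58 to 0.07, adjusted p = 0.306) and Psap -0.66 (-1.48 to 0.15, adjusted p = 0.392), which were -0.69 and -0.36 without that library. A fit of only the 4 busulfan libraries called 2 of the 9 genes lower in dcat testes, Ctsd (-0.91, adjusted p = 0.0301) and Gm2a (-0.78, adjusted p = 0.0405), beside 1.98% of all transcripts called lower in that fit. Over all settings the adjusted p of Gm2a ran from 0.0405 to 0.793 and that of Ctsd from 0.0301 to 0.819. Cd63 stood at 236 and 254 CPM in wt and at 193 and 43.5 CPM in dcat busulfan libraries, the lower value from dcat busulfan replicate 2. Its fold change was -0.35 without that library and -2.46 (adjusted p = 0.00956) without dcat busulfan replicate 1. In the same comparison by the main fit, 7 of 12 late spermatid markers were called higher in dcat testes (median 2.67). Called lower were 0 of 10 Sertoli and 1 of 9 Leydig markers, Insl3 (-1.19, edgeR adjusted p = 0.0299). The estimates of the Sertoli markers were also all below 0, from -0.59 to -0.07 (median -0.24). Those of the Leydig markers ran from -1.19 to 0.37 (median -0.15).

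The effect of busulfan was not found to differ between the genotypes. The interaction of genotype and busulfan was called for 0 of 9 genes by edgeR, beside 0.323% of all transcripts, with 451 of 2783 at an unadjusted p under 0.05. With the replicate block, 123 transcripts in place of 9 were called, and again 0 of the 9 genes. The lowest value was that of Npc2 (-1.83, SE 0.93, adjusted p = 0.317), followed by Cd63 (-1.53, SE 1.33) and Ctsb (-1.35, SE 0.76, adjusted p = 0.409). Npc2 was higher in both dcat than in both wt libraries after vehicle (133 and 71.9 against 19.4 and 42.9 CPM) and lower after busulfan (401 and 446 against 484 and 678 CPM).

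**Figure D3:**
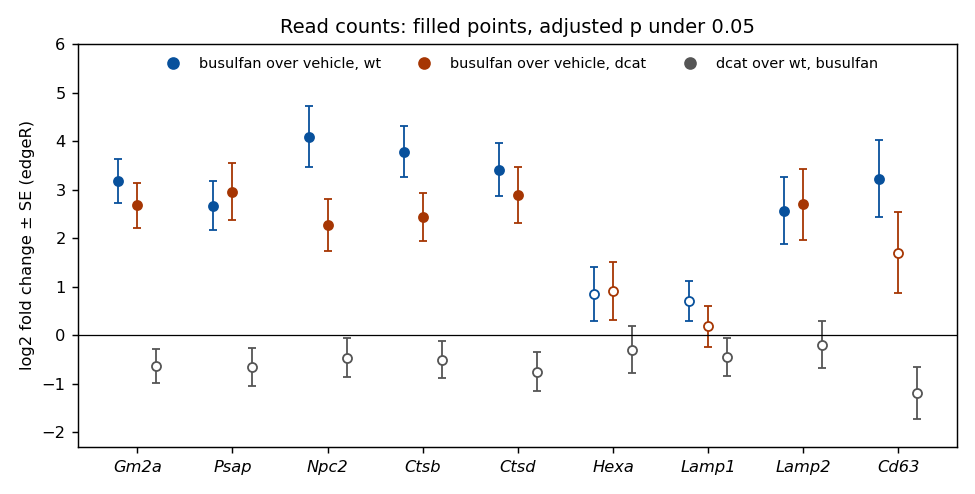
The vertical axis gives the log2 fold change of read counts with its standard error from edgeR for the 9 genes, for busulfan over vehicle in wt and in dcat testes and for dcat over wt testes after busulfan. Filled points had an adjusted p under 0.05: 7 of 9 in wt and 6 of 9 in dcat testes for busulfan over vehicle, and 0 of 9 for the genotypes, where all 9 points lie below 0.

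Poly(A) tails were compared next, because TENT5C lengthens tails and is known in other cells to act on transcripts of proteins that enter the endoplasmic reticulum. Insl3 and Ptgds, which encode secreted proteins, are given beside the lysosomal genes. A mean tail was tested where a transcript had at least 10 reads in each library of the comparison, in nucleotides (nt). After busulfan 7 of the 9 genes could be tested between genotypes, and limma called 0 of 7, beside 0.505% of all 1188 transcripts tested. Gm2a had a mean tail of 156 and 169 nt in wt and of 166 and 167 nt in dcat busulfan libraries, from 71, 124, 40 and 66 reads. The dcat values lay between the wt values, and the difference was 3.76 nt (95% interval -28.8 to 36.3 nt, limma adjusted p = 1.00).

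By the same fit, Insl3, the Leydig hormone gene, had 181 and 187 nt in wt and 105 and 109.9 nt in dcat busulfan libraries, a difference of -76.3 nt (-86.2 to -66.5 nt, limma adjusted p = 1.69e-05). Ptgds, the prostaglandin D synthase gene, differed by -67.4 nt (-83.6 to -51.3 nt, adjusted p = 0.00220). The other members tested differed by 2.57 nt (-22.6 to 27.7 nt) for Ctsb, 14.3 nt (-9.22 to 37.8 nt) for Lamp1, -8.48 nt (-45.6 to 28.6 nt) for Ctsd, -9.54 nt (-40.3 to 21.3 nt) for Psap, -12.9 nt (-65.2 to 39.5 nt) for Npc2 and -18.1 nt (-71.3 to 35.0 nt) for Lamp2. The intervals of Gm2a, Ctsb, Lamp1, Ctsd and Psap left out the estimate of Insl3 and its whole interval, while that of Lamp2 overlapped the latter. That of Npc2 ended at -65.2 nt, just short of the Insl3 interval, and at -66.7 nt in the fit on sums per gene. The widths came from the spread in all 8 libraries, also from vehicle means of few reads (for Npc2, 225 nt from 1 read in wt vehicle replicate 1). They are thus not the precision of the busulfan libraries alone. The interval of Ptgds was overlapped by those of Npc2 and Lamp2 and not by those of the other 5. For the summed reads of Psap the difference was -8.21 nt (-28.1 to 11.7 nt), and for the summed reads of Lamp2 it was -22.3 nt (-61.1 to 16.4 nt). Among the other lysosomal genes, Ctsl, with 202 reads or more in each busulfan library, differed by -5.03 nt (-17.5 to 7.44 nt).

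**Figure D4:**
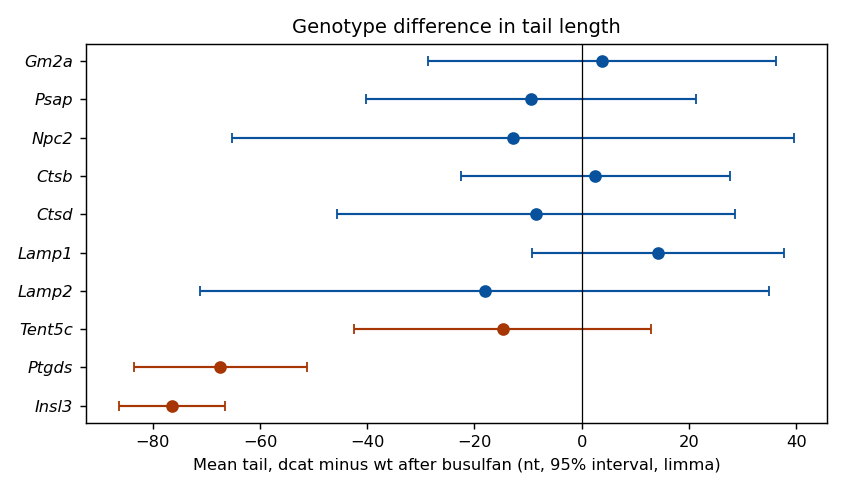
The horizontal axis gives the difference in mean poly(A) tail, dcat minus wt after busulfan, in nt with the 95% interval from limma, for the 7 lysosomal genes tested (blue) and for Tent5c, Ptgds and Insl3 (brown). The lysosomal genes lie between -18.1 and 14.3 nt with intervals that include 0, and Insl3 lies at -76.3 nt.

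Of the Gm2a reads, 67.6% (95% Wilson interval 56.1 to 77.3%) and 72.6% (64.1 to 79.7%) had tails of 120 to 210 nt in wt busulfan libraries, and 77.5% (62.5 to 87.7%) and 77.3% (65.8 to 85.7%) in dcat busulfan libraries. Of the Insl3 reads these shares were 77.1% and 73.2% in wt and 32.2% and 34.6% in dcat busulfan libraries. Tails of 30 to 120 nt were on 18.3% and 11.3% of Gm2a reads in wt and on 15.0% and 12.1% in dcat busulfan libraries, against 61.2% and 59.6% of Insl3 reads in the latter. Over the reads of all 9 genes, the mean tail was 134 and 145 nt in wt and 137 and 136 nt in dcat busulfan libraries, and the groups overlapped.

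Tail length varied among the lysosomal genes. After busulfan the mean tail of Gm2a, 163 ± 9.30 nt (wt) and 167 ± 1.16 nt (dcat) (SD, n = 2), was longer than that of 94.3% and 97.1% of the transcripts read 10 times or more in each library of the group, whose medians were 120 and 123 nt. Npc2 followed with 160 ± 8.30 and 148 ± 7.49 nt (93.6% and 86.2%), and Psap with 155 ± 15.3 and 146 ± 5.22 nt (91.2% and 84.6%). Ctsb had 122 ± 10.9 and 125 ± 9.14 nt (53.4% and 54.0%) and Ctsd 121 ± 7.07 and 112 ± 8.18 nt (50.8% and 31.9%). Lamp1 had 127 ± 7.28 and 141 ± 7.76 nt (61.4% and 78.9%), the most-read transcript of Lamp2 had 123 ± 23.1 and 105 ± 13.1 nt (54.7% and 21.2%), and Cd63 had 118 ± 9.73 and 103 ± 4.51 nt, the latter from 12 and 4 reads.

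By most-read transcripts, the tail of Gm2a was longer than those of Ctsb, Ctsd, Cd63, Lamp1, Lamp2, Npc2 and Psap in 4 of 4 busulfan libraries, and than that of Hexa in 3 of 4. Less-read transcripts were longer in places. In wt busulfan replicate 1, Lamp2 ENSMUST00000061755 had 168 nt and Psap ENSMUST00000105465 had 161 nt, against 156 nt for Gm2a. In dcat busulfan replicate 1 that Psap transcript had 174 nt, from 4 reads, against 166 nt. The mean gap was 41.0 ± 6.06 nt to Ctsb, 48.3 ± 8.25 nt to Ctsd and 10.7 ± 10.3 nt to Npc2 (SD over the 4 libraries). With 4 libraries a two-sided exact permutation test of paired signs cannot go below p = 0.125, which was reached for 7 of the 8 genes (0.143 after adjustment over 8). In vehicle libraries Gm2a had 141.5, 188, 181 and 166 nt, from 4 to 12 reads, a span within which no order among the members was read.

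**Figure D5:**
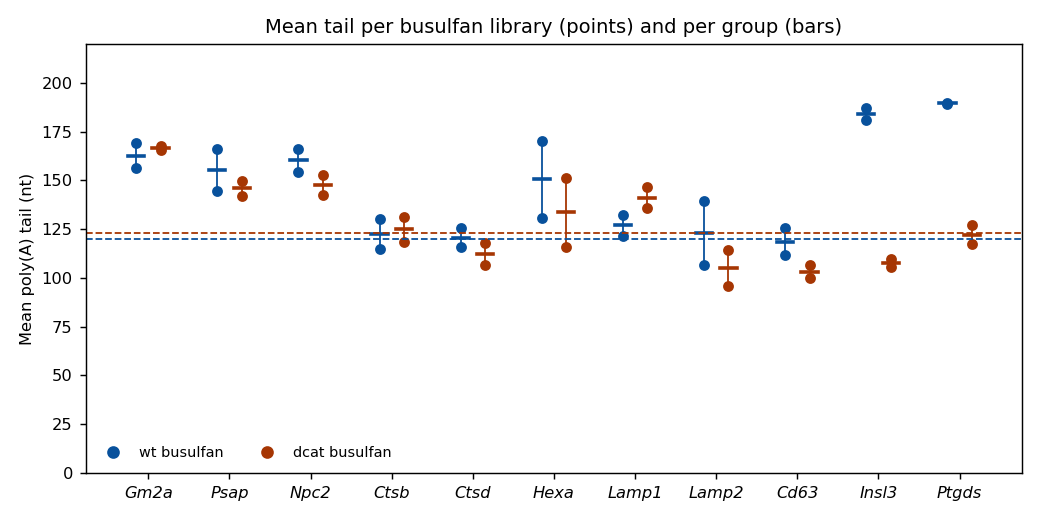
The vertical axis gives the mean poly(A) tail in nt of the most-read transcript of each gene in the busulfan libraries, with points for the 2 libraries of a group, short bars for the group mean and dashed lines for the median over transcripts (120 nt in wt and 123 nt in dcat). Gm2a lies at 156 to 169 nt in all 4 libraries, Ctsb lies near the dashed lines, and Insl3 and Ptgds drop in dcat libraries. Hexa in wt replicate 1 rests on 9 reads and Cd63 in dcat replicate 2 on 4.

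Mean tails of the Lamp2 transcripts, which have different last exons, were compared within libraries. ENSMUST00000061755, which ends in an exon of 2345 bases, had longer mean tails than ENSMUST00000016678, which ends in an exon of 510 bases, in 7 of 7 libraries in which both were read. The values were 168 against 107 nt and 142 against 139.5 nt in wt busulfan libraries and 162 against 95.8 nt and 123.5 against 114 nt in dcat busulfan libraries, from 5 to 30 reads each, and the vehicle means rest on 1 to 5 reads. The mean of ENSMUST00000016678 minus ENSMUST00000061755 was -67.2 ± 47.6 nt (SD over 7 libraries, exact permutation p = 0.0156, the smallest that 7 libraries allow, and 0.125 after adjustment over 8 pairs of transcripts), so the difference did not pass after adjustment. It was -34.6 ± 33.6 nt over the 4 busulfan libraries and -111 ± 11.3 nt over the 3 vehicle libraries with so few reads. The annotated last exons share 0 bases, so this pair can be told apart by the reads, and it was picked out after its values were seen. The 2 transcripts of Cd63 and the 4 of Psap share their last exons.

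Few members had enough vehicle reads to test tails against busulfan. In wt testes this was possible for Lamp1, which had 143 and 148 nt in vehicle and 132 and 122 nt in busulfan libraries, a difference of -18.7 nt (95% interval -41.3 to 3.85 nt, limma adjusted p = 0.192), beside a median of -19.9 nt and 32.4% called over all 527 transcripts tested. Relative to the median of each library the sign of that difference turned, to 4.48 nt. In dcat testes Lamp1 differed by -4.86 nt (-28.0 to 18.3 nt, adjusted p = 0.740) and Ctsb by -5.13 nt (-30.5 to 20.3 nt, adjusted p = 0.749), and 0 of the 2 passed beside 25.6% of all 441 transcripts. The summed reads of Psap could be tested in wt testes and had 128 and 131 nt in vehicle and 141 and 158 nt in busulfan libraries, a difference of 20.4 nt (0.75 to 40.04 nt, adjusted p = 0.1001). After vehicle, the tail of Lamp1 differed between genotypes by 0.40 nt (-24.3 to 25.1 nt, limma adjusted p = 0.996), with 0 of 1 gene called beside 0% of 720 transcripts. The interaction for Lamp1 was 13.9 nt (-17.7 to 45.4 nt, adjusted p = 0.873), beside 0.885% of 339 transcripts called.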

How the data were processed

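The deposited count table holds raw whole-number read counts per transcript, and the deposited tail table holds 1 poly(A) length in nt per read, as run by the authors. Per the methods and labels, the authors called bases with Guppy, split barcodes with Deeplexicon, mapped reads by Minimap2 to the GENCODE transcriptome (GRCm38, mm10) and took tails from Nanopolish. Transcripts under 10 reads in either library of every group were dropped, and 0 of the 2783 went against this filter. The authors' tables of log2 fold changes and adjusted p-values between genotypes were not used. Per the methods, each replicate number is 1 multiplexed pool with 1 mouse of each of the 4 groups, so numbers pair the samples. The 8 libraries named here are the barcoded samples of these pools. The main fits did not use the pairing, which the replicate block did. Between groups, deviations of same-numbered samples from their group means correlated at -0.24 to 0.29 for counts and 0.0061 to 0.062 for tails, over 339 transcripts. With 2 libraries per group, their number and depth limit the precision.

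Counts were fitted with edgeR 4.0.16 in R 4.3.3 (quasi-likelihood F tests, TMM, all 8 libraries as 4 groups). Mean tails were fitted with limma 3.58.1 (eBayes, prior variance following log2 read number), requiring at least 10 reads in each library compared, over all libraries with a value. P-values are two-sided and adjusted by Benjamini-Hochberg over all transcripts tested, with a threshold of 0.05. Both fits were also run on simulated data, with the same spread set for all counts and only read-sampling noise for tails. Such a simulation does not show how the fits perform on these data. Wilson intervals cover counting error only. Alternatives were DESeq2 1.42.0, RLE scaling, a low-count filter, sums per gene, a replicate block, medians, log2 tails, centring, a minimum of 20 reads, a fit without trend and leaving out each library. For tails, fits of only the libraries compared, or without means of under 10 reads, were added after seeing the data. The members, marker and lysosome lists, tests and rule for named genes were chosen with earlier results of these data known. By that rule the text names each member gene, 4 of the 5 transcripts most correlated with Gm2a, Insl3, Ptgds, Tent5c and up to 4 most-read genes of each lysosome list. Positions and exons are from GENCODE vM21 and promoters from RefSeq. Of the member reads, 3 carried a read name listed more than once and were kept. Protein sequences were not used here, and a few items that the rules would name are not reported here.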

Additional observations from a re-analysis of the deposited data

How the results depend on the processing

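In all, 643 alternative values were computed for 59 results, and 602 kept their direction, their side of the threshold and, for counts of genes, their size. With the replicate block 59 of 59 did so, 7 of 9 genes were again called in wt and 6 of 9 in dcat testes for busulfan against vehicle, and the block changed no call of a member gene. The number of genes called between genotypes after busulfan was 0, 2 in the fit of only the 4 busulfan libraries and 0 to 1 without a single library. For busulfan against vehicle it was 7 to 9 without a single wt library, with Hexa and Lamp1 added without wt busulfan replicate 1, and 4 to 7 without a single dcat library, where Npc2 and Lamp2 were lost without dcat vehicle replicate 2 and Cd63 was added without dcat busulfan replicate 2. Reversed values were all uncalled. For Lamp1 counts in dcat testes, busulfan against vehicle gave -0.025 by DESeq2 and -0.0076 with RLE scaling. Centring libraries turned the tail differences of Lamp1 to 4.48 nt (busulfan, wt), 17.9 nt (busulfan, dcat) and -1.63 nt (genotype, vehicle), and those of Ctsb to 17.6 nt (busulfan, dcat) and -1.12 nt (genotype, busulfan). Leaving out single libraries gave log2 ranges that cross 0 for Lamp1 after busulfan in dcat (-0.0074 to 0.39), for dcat against wt after vehicle in Cd63 (-3.78 to 1.10), Ctsd (-0.93 to 1.00), Gm2a (-0.17 to 0.23), Lamp1 (-0.018 to 0.38) and Lamp2 (-1.06 to 4.36), and after busulfan in Hexa (-0.74 to 0.51), Lamp1 (-0.87 to 0.21) and Lamp2 (-0.52 to 0.13). Tail ranges that cross 0 were -20.0 to 9.71 nt (Ctsb) and -15.8 to 6.08 nt (Lamp1) for busulfan in dcat, -10.5 to 11.3 nt (Lamp1) for genotype after vehicle, and -5.12 to 10.3 nt (Ctsb), -2.81 to 10.3 nt (Gm2a) and -20.4 to 1.30 nt (Psap) for genotype after busulfan. The cause was not tested. Calls over all transcripts moved more. For counts after busulfan in dcat testes, 1746 became 1095 by DESeq2, of which 35.7% in place of 49.9% were higher, and 712 to 1795 without a single library (fewest without dcat vehicle replicate 2). Between genotypes after busulfan 162 became 47 by DESeq2 and 7 to 360 without a single library (most without dcat busulfan replicate 1), and after vehicle 0 became 1 with only the 4 libraries compared. The count interaction moved from 9 to 68 with RLE, 36 after filtering, 34 for sums per gene, 123 with the block and 3 to 257 without a single library. Tail calls for busulfan moved from 171 to 81 (centred) and 101 (20 reads) in wt, and from 113 to 54 (centred) in dcat testes, with 78 to 113 and 9 to 106 without a single library. Those between genotypes after busulfan numbered 6, 16 in either fit added, 0 without a trend and 4 to 10 without a single library, and in no fit was a member among them. After vehicle 0 became 1 with medians, the block, either fit added or without wt vehicle replicate 1. The tail interaction moved from 3 to 1 (medians, sums per gene), 0 (no trend), 8 (centred), 5 (log2) and 1 to 3 without a single library. With 54 to 142 member reads in a vehicle library, changes of single genes are uncertain.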
